A study of Mus musculus with 11 samples.

Results

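Lymphatic endothelial cells were sought in 11 droplet-based single-cell RNA libraries of dissociated mouse lung, where they were a rare population. They were chosen by UMI counts alone (a UMI, unique molecular identifier, marks 1 captured RNA molecule). A barcode passed if its UMIs numbered 1000 to 30000 and no more than 14% of them were mitochondrial. It was then kept if Mmrn1, Prox1 and Reln together had 2 or more UMIs, Ptprc (the leukocyte antigen CD45) had 0 and Gpihbp1 (a capillary surface protein) had at most 1. The gate held 321 cells of 69267 that passed, and 9 to 62 cells per library.

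All libraries were whole lung from aged mice. The groups were wild type (WT, +/+, 1 library), p21 heterozygotes (p21Het, +/-, 3 libraries), p21mTert (+/mTert, 5 libraries) and p21mTertCD (+/mTertCD, 2 libraries). The study asked what mTert induced in p21-positive cells does in the aged lung, and the labels do not spell out CD. In that notation each genotype other than WT keeps 1 unaltered copy at the altered locus. Age was 18 months in the labels, except 19 months for p21Het_1 and 20 months for p21mTert_1, whose titles give 18. Libraries are written as group and replicate, and WT_1, p21Het_1 and p21mTert_1 are the 3 whose titles carry no replicate number. The labels do not say that libraries came from separate animals, so p-values measure the spread between these libraries. WT, with 1 library, is given as values and entered no test.

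Lymphatic endothelium lines the vessels that return tissue fluid, proteins and leukocytes to the blood. Its identity is set by the transcription factor Prox1, which is needed to form and keep lymphatic cells. The receptor VEGFR-3 (Flt4), with its co-receptor Nrp2, responds to the growth factor VEGF-C and drives lymphatic growth. Lymphatic capillaries secrete the chemokine CCL21, which draws dendritic cells and T cells carrying CCR7 into the vessel. Lung lymphatics run along airways, veins and septa and drain fluid from around the alveoli.

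Ccl21a was the most abundant of the lymphatic marker genes, and it belongs to a group of near-identical copies on mouse chromosome 4. Ccl21a lies at chr4:42772860-42773993 on the minus strand and its copy Gm21541 (Ccl21d in RefSeq) at chr4:41903610-41904743 on the plus strand (GENCODE M21, GRCm38). Their 870-base transcripts differ at 6 bases, an identity of 99.3%, and 3 of the 6 fall in the last 300 bases, where 3′ libraries take their reads. The 250 bases before each start are shown because they show how alike the copies are ahead of the gene as well. They are from RefSeq (GRCm38.p6), with the positions that differ among the 4 copies Ccl21a, Ccl21d, Gm13304 and Gm10591 in capitals. The windows are chr4:42773992-42774241 (minus strand) for Ccl21a and chr4:41903363-41903612 (plus strand) for Ccl21d.
Ccl21a: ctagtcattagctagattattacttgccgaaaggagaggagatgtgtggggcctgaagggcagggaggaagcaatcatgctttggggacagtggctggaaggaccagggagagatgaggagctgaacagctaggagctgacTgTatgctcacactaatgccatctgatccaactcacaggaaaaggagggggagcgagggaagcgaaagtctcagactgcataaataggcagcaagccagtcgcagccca
Ccl21d: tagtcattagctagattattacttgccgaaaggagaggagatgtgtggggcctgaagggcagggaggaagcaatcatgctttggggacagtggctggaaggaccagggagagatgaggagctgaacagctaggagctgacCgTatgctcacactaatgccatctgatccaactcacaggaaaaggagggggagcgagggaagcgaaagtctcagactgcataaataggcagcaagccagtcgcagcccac
Over 249 aligned bases this pair differed at 1 base. The same windows of the copies Gm13304 and Gm10591 each differed from Ccl21a at 2 bases.

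The label was checked against markers that the gate did not use, and the gated cells were mixed. Of the 321 cells, 207 (64.5%) carried Ccl21a together with UMIs of the endothelial genes Pecam1, Cdh5 or Cldn5. In these 207 cells, called Ccl21a+ endothelial cells below, a median of 27 UMIs came from the gate's 3 genes, and 170 had all 3 of them. Another 69 cells (21.5%) had at least 3 UMIs of the platelet genes Pf4, Ppbp, Itga2b and Gp9. In all 69 the gate was met by Mmrn1 alone, and none had a Ccl21a UMI. Cells with Ccl21a and endothelial UMIs had been set apart first, so this lack of Ccl21a largely follows from the order of sorting. Mmrn1 encodes multimerin 1, a protein that platelets and megakaryocytes store as well as endothelium. A further 15 cells (4.67%) had at least 3 UMIs of a list of neuroendocrine genes, Calca among them, and met the gate by Prox1 alone. Prox1 is also a transcription factor of airway neuroendocrine cells. The remaining 30 cells (9.35%) had neither set. The split into platelet and neuroendocrine cells was made after the data were seen.

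The platelet-marker cells were unevenly spread, with 24 in p21mTert_5, 13 in p21Het_2, 8 in p21mTertCD_2, 0 in WT_1 and 2 to 6 in each other library. Ccl21a+ endothelial cells numbered 6 in WT_1. There were 21, 38 and 9 in p21Het_1 to p21Het_3, 16, 19, 32, 21 and 17 in p21mTert_1 to p21mTert_5, and 18 and 10 in p21mTertCD_1 and p21mTertCD_2. They made up 37.8% of the gated cells in p21mTert_5 and 82.1% in p21mTert_3.

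**Figure D1:**
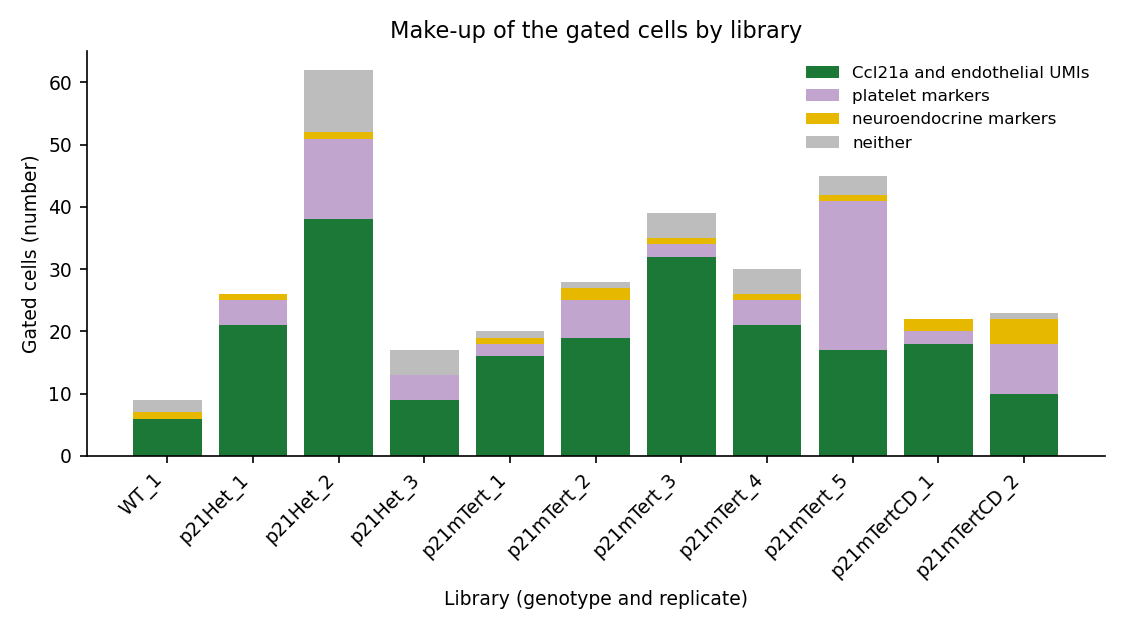
Number of gated cells in each library, stacked by which markers they carried (y axis: cells; x axis: libraries by genotype and replicate). Cells with Ccl21a and endothelial UMIs were the largest class in all libraries but p21mTert_5, where 24 of 45 cells carried platelet markers.

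The makeup of cells changed with the number of rule UMIs. Just outside the threshold, 163 cells had 1 UMI of the 3 genes, of which 5.52% had Ccl21a and 35.0% platelet markers. Just inside it, 65 cells had 2 UMIs, with 16.9% carrying Ccl21a and 56.9% platelet markers. At 3 to 4 UMIs, 9.68% of 31 cells had Ccl21a and 67.7% platelet markers. At 5 to 9 UMIs, 43.6% of 39 cells had Ccl21a, 30.8% platelet markers, and 8 cells had neuroendocrine markers. Among the 186 cells with 10 or more rule UMIs, 96.8% had Ccl21a and 0.538% platelet markers. Of 15909 cells with 0 rule UMIs that met the other limits, 1.01% had a Ccl21a UMI.

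**Figure D2:**
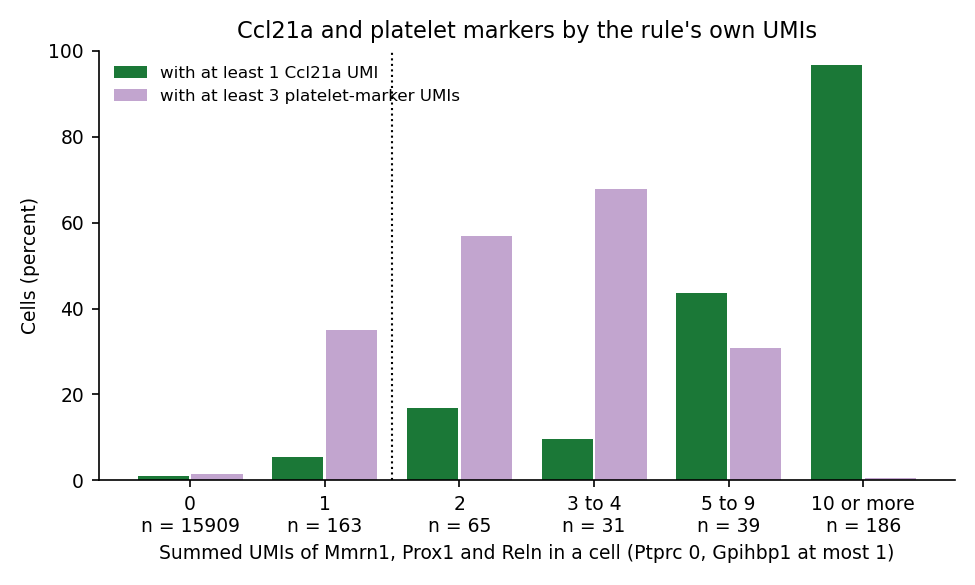
Percent of cells with Ccl21a (green) and with platelet markers (purple) by their summed UMIs of Mmrn1, Prox1 and Reln, among cells with Ptprc 0 and at most 1 Gpihbp1 UMI. The dotted line is the gate's threshold, and Ccl21a is in 16.9% of cells at 2 UMIs, 9.68% at 3 to 4 and 96.8% at 10 or more.

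The limit on Gpihbp1 left out further cells with Ccl21a. Of all Ccl21a UMIs in passing cells, 55.4% lay in the gate and 31.2% in 76 cells that failed only the Gpihbp1 limit. All 76 had at least 12 Ccl21a UMIs. Their summed level over the 12 lymphatic identity genes (Ccl21a, Lyve1, Flt4, Pdpn, Nts, Tbx1, Maf, Klhl4, Stab1, Sema3d, Sema3a and Cp) was 28481 CPM (counts per 1000000 UMIs), against 30615 CPM in the 207 cells. Most of both sums was Ccl21a, at 19482 CPM in the 76 cells and 22212 CPM in the 207. Ccl21a also helped to choose the 207 cells, so the sums are no independent comparison of the 2 sets. Gpihbp1 itself was at 432 CPM in the 76 cells, 60.3 CPM in the 207 and 1443 CPM in 4253 capillary cells chosen by 2 or more Gpihbp1 UMIs. Of other capillary genes, Cd93 stood at 117 CPM against 1719 CPM in capillary cells, and Sema3c at 54.5 CPM against 1584 CPM. Plvap, of fenestrated and capillary endothelium, was closer, at 553 CPM against 945 CPM. Each of these was higher in the 76 cells than in the 207, where Cd93 was at 44.0 CPM, Sema3c at 1.63 CPM and Plvap at 489 CPM. The summed capillary list was at 966 CPM in the 76 cells and 672 CPM in the 207. The 76 cells were deeper, with a median of 7958.5 UMIs against 4584, and 15.8% of them were marked as doublets against 12.6% of the 207. Taken with them, the Ccl21a+ endothelial cells numbered 283, and 8.70% (p21Het_1) to 44.4% (p21mTertCD_2) of a library's cells lay above the limit. A further 11.4% of Ccl21a UMIs lay in 191 cells with rule UMIs and Ptprc, of which 29 had at least 10 Ccl21a UMIs.

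Libraries held 4721 to 8525 passing cells at a median of 4133 to 6454 UMIs. Median mitochondrial shares were 6.30% to 6.58% in the 3 libraries with no number in the title and 2.82% to 4.28% in the others. Any pair of libraries shared 4 to 20 passing barcodes, at most 0.322% of the smaller library. Several libraries stood apart in what their gated cells held. Ccl21a+ endothelial cells of p21Het_1 had 24977 CPM of 7 epithelial genes (Sftpc, Sftpb, Scgb1a1, Ager, Epcam, Foxj1, Cdh1), against 891 to 3833 CPM in the other 10 libraries. All 9 Ccl21a+ endothelial cells of p21Het_3 were marked as doublets, as were 26 of 207 in all.

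Gated cells made up 0.165% of passing cells in WT_1, with an exact 95% interval of 0.0753% to 0.312% that covers counting error only. They made up 0.418%, 0.727% and 0.290% in p21Het_1 to p21Het_3. The shares were 0.321%, 0.372%, 0.618%, 0.479% and 0.953% in p21mTert_1 to p21mTert_5, and 0.335% and 0.411% in the p21mTertCD libraries. The 3 tested groups overlapped, and WT_1 lay below all of their libraries. The p21Het mean was 0.478% ± 0.225 (SD, n = 3). The p21mTert mean was 0.549% ± 0.253 (SD, n = 5), and that of p21mTertCD 0.373% ± 0.0533 (SD, n = 2). The difference p21mTert minus p21Het was 0.0703 percentage points (2-sided exact permutation p = 0.732, adjusted over the 3 contrasts 0.8). That of p21mTert minus p21mTertCD was 0.176 points (exact permutation p = 0.524, adjusted 0.8), and that of p21mTertCD minus p21Het was -0.105 points (exact permutation p = 0.8, adjusted 0.8). The first difference turned to -0.0308 points without p21mTert_5 and -0.0240 points without p21Het_3, and the last to 0.0191 points without p21Het_2. The smallest p that 5 against 3 libraries can give is 0.0179, 5 against 2 gives 0.0476, and 2 against 3 gives 0.1. Adjusted over the 3 contrasts the smallest possible p is 0.0536, so none could pass 0.05 and the tests say nothing about equal shares. As a share of endothelial barcodes all 3 differences turned sign, to -0.433, -0.480 and 0.0468 points. Endothelial barcodes had Ptprc 0 and 2 or more UMIs of Pecam1, Cdh5 and Cldn5 together. Only gated cells among them were counted, 22 of 45 in p21mTert_5 and 42 of 62 in p21Het_2. Both the cells counted and the base thus changed.

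Among Ccl21a+ endothelial cells alone the shares were lower. WT_1 had 0.110% (exact 95% interval 0.0403% to 0.239%), and p21Het libraries had 0.338%, 0.446% and 0.153%. In p21mTert the shares were 0.257%, 0.253%, 0.507%, 0.335% and 0.360%, and in p21mTertCD 0.274% and 0.179%. For p21mTert_5 the share was 0.953% with all 45 gated cells and 0.360% with the 17 Ccl21a+ endothelial cells, the other 28 being 24 platelet-marker, 1 neuroendocrine-marker and 3 of neither set. Group means were 0.312% ± 0.148 (SD, n = 3), 0.342% ± 0.103 (SD, n = 5) and 0.227% ± 0.0678 (SD, n = 2). The 3 exact permutation p-values were 0.732, 0.238 and 0.5 in the order of contrasts above. Without p21mTert_3 or p21Het_3 the difference p21mTert minus p21Het turned to -0.0111 and -0.0493 points. Within the numbered libraries the difference p21mTert minus p21Het was 0.0970 points for gated cells and 0.0641 points for Ccl21a+ endothelial cells (exact permutation p = 0.733 and 0.667). A share cannot tell fewer lymphatic cells in the lung from fewer released by the digestion.

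**Figure D3:**
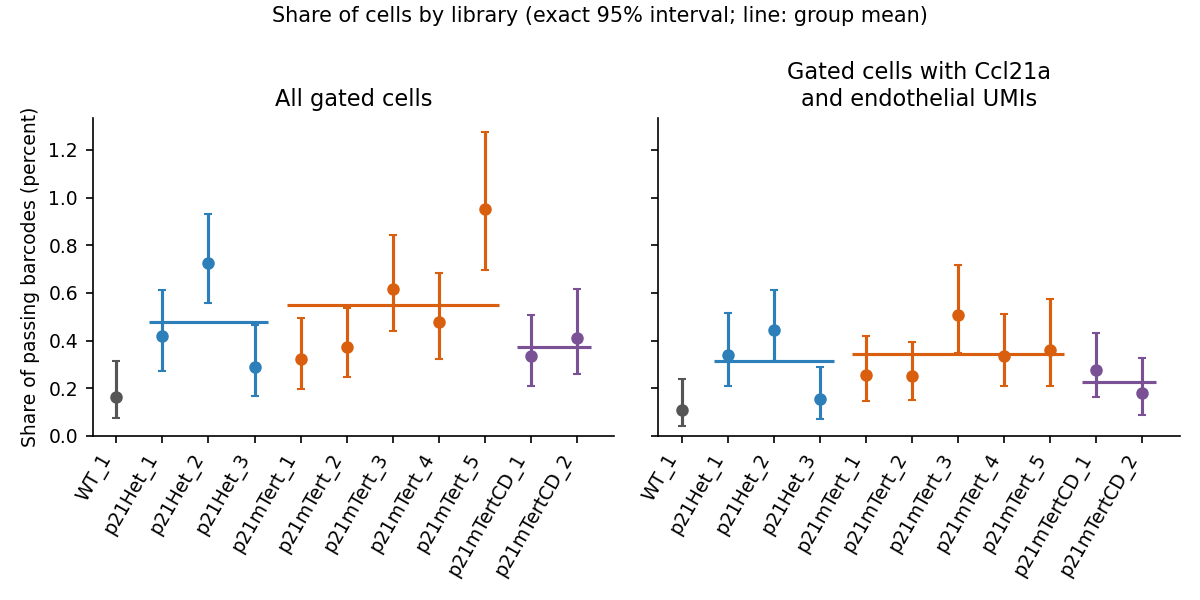
Share of passing barcodes (percent) in each library for all gated cells (left) and for gated cells with Ccl21a and endothelial UMIs (right). Points are libraries with exact 95% intervals and lines are group means. The tested groups overlap in both panels, and WT_1 lies below all other libraries.

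Levels are given as CPM of the UMIs summed over the Ccl21a+ endothelial cells of a library. They are set beside the 4253 capillary cells and beside other endothelial cells, which had 3 or more UMIs of Pecam1, Cdh5 and Cldn5, no rule UMIs and at most 1 Gpihbp1 UMI. The gate chose the cells on this contrast, so it is described with no test. A gene is called higher or lower here when its ratio is at least 2-fold and holds its direction in all 9 libraries with at least 10 such cells. By that rule 7.7% of 7322 genes were higher than in capillary cells and 8.71% were lower. Against other endothelial cells 6.91% of 7348 genes were higher and 8.94% lower.

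The gate's own genes stood at 4236 CPM for Mmrn1, 1162 CPM for Reln, a secreted glycoprotein, and 695 CPM for Prox1. Ccl21a was at 22212 CPM over all libraries. By library it read 30388 CPM in WT_1, 21162, 19277 and 28630 CPM in p21Het, 21284, 17381, 21505, 24109 and 23173 CPM in p21mTert, and 21268 and 28026 CPM in p21mTertCD. The 3 tested groups overlapped. Capillary cells had 1.92 CPM, and leukocytes, taken as cells with 2 or more Ptprc UMIs, had 10.2 CPM. Whether the leukocyte value is a level of free RNA was not tested. Among cells with 2 or more rule UMIs and at least 1 Ptprc UMI, 29 held 5611 Ccl21a UMIs. All 68679 cells with fewer than 2 rule UMIs held 963. How many of the 29 cells were among the leukocytes was not counted. Gm21541 followed at 1.68% to 4.76% of the Ccl21a UMIs of the same library, 878 UMIs in all. How its reads were divided from those of Ccl21a cannot be told from the counts. Gm13304 had 4 UMIs in these cells and Gm10591 had 0. One entry, ENSMUSG00000096271, which is Ccl21c in the files and Ccl21b in GENCODE M21, had 9 UMIs, and the remaining Ccl21b and Ccl21c entries had 0.

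Of the 12 lymphatic identity genes, 10 were higher than in capillary cells and 0 lower, with a median log2 ratio of 4.41 against 0.05 over all genes. Ccl21a is among the 10 and helped to choose these cells. Flt4, the VEGF-C receptor, was at 1287 CPM with library values from 1034 to 1657 CPM, against 54.6 CPM in capillary cells. Maf, a transcription factor, was at 1946 CPM against 2.61 CPM. The scavenger receptor Stab1 stood at 899 CPM against 92.6 CPM, and Cp, the copper carrier ceruloplasmin, at 877 CPM against 22.5 CPM. Pdpn, the mucin-like protein podoplanin used to stain lymphatics, was at 314 CPM against 4.31 CPM. The transcription factor Tbx1 was at 220 CPM, and the guidance factors Sema3d and Sema3a were at 379 CPM and 195 CPM.

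Lyve1 and Nts were the exceptions. Lyve1, the hyaluronan receptor of lymphatic capillaries, was at 1718 CPM but also at 1101 CPM in capillary cells and 1026 CPM in other endothelial cells, and it was higher than in capillary cells in 8 of 11 libraries. By library it read 793 CPM in WT_1, 844, 1809 and 2639 CPM in p21Het, 1086, 1514, 2283, 1578 and 2176 CPM in p21mTert, and 1919 and 1534 CPM in p21mTertCD. The lowest values were those of WT_1, p21Het_1 and p21mTert_1, the libraries with no number in the title. Nts, which encodes neurotensin, had UMIs in 27 of the 207 cells (13.0%). Its level was 0 in WT_1, p21mTert_4 and p21mTertCD_2, and 1063 CPM and 1458 CPM in p21mTert_3 and p21mTert_5. Single cells also differed in Lyve1, whose quartiles were 0 and 24.7 per 10000 UMIs around a median of 8.64. Ccl21a had quartiles of 130 and 301 per 10000 UMIs around a median of 223. Across the 207 cells Lyve1 and Ccl21a levels were uncorrelated (Spearman's rho -0.01). Correlations were computed for a limited set of genes and not for the whole table. Within that set Lyve1 went most with Fgl2 (rho 0.70), followed by Igfbp5 (rho 0.45), Ackr3 (rho 0.45) and Ackr2 (rho 0.43). These cells share libraries and depth, so the correlations are descriptions.

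**Figure D4:**
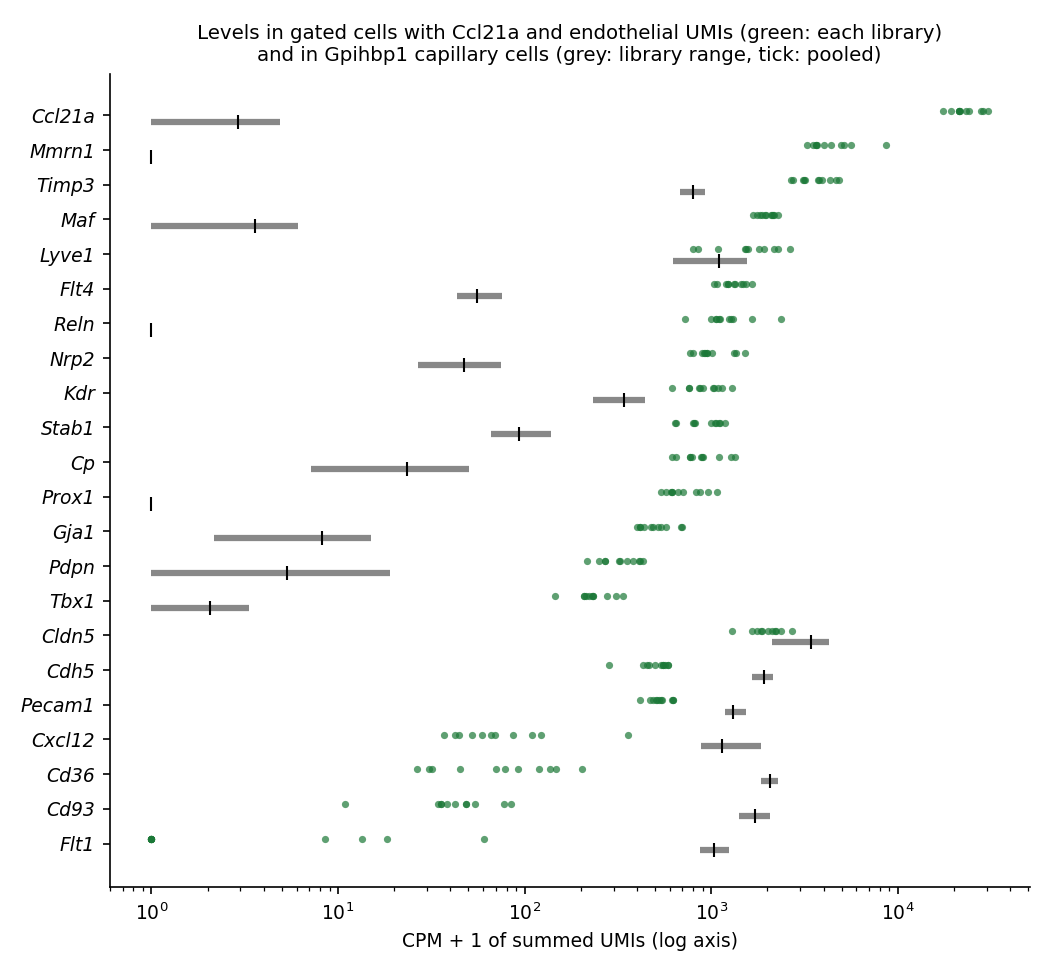
CPM of 22 genes, plus 1 and on a log axis, in gated cells with Ccl21a and endothelial UMIs (green points: 11 libraries) and in Gpihbp1 capillary cells (grey bar: range over libraries, tick: all libraries). Ccl21a, Maf, Flt4, Nrp2, Cp and Pdpn do not overlap with capillary cells, Lyve1 does, and Cxcl12, Cd36, Cd93 and Flt1 are lower.

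In the VEGF pathway, 6 of 11 genes measured were higher than in capillary cells and 4 lower. Nrp2, the co-receptor of VEGFR-3, was at 1046 CPM against 46.4 CPM, and Itga9, an integrin subunit, at 278 CPM against 21.9 CPM. Kdr (VEGFR-2) was at 932 CPM against 340 CPM in capillary cells and 1200 CPM in other endothelial cells. Pgf, a VEGF-family ligand, was at 138 CPM against 1.01 CPM. The blood-endothelial receptors were low, with Flt1 (VEGFR-1) at 8.96 CPM against 1036 CPM and Nrp1 at 22.8 CPM against 568 CPM. Vegfa was at 24.4 CPM against 458 CPM. Vegfc had 0 UMIs in these cells. In the angiopoietin pathway Angpt2, a ligand of the receptor TIE2, was at 195 CPM against 18.2 CPM. Tek (TIE2) was at 82.3 CPM against 532 CPM, and Ptprb, the phosphatase that restrains it, at 270 CPM against 2851 CPM.

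Of 15 transcription factors of lymphatic development, 5 were higher than in capillary cells and 2 lower. Nr2f2, the venous factor that acts with Prox1, was at 924 CPM against 75.5 CPM. Foxc2, a factor of lymphatic valves, was at 27.7 CPM against 1.01 CPM, with UMIs in 27 cells. Gata2 was at 56.2 CPM against 456 CPM. Klf2, a factor induced by flow, was at 3705 CPM with library values from 880 to 8492 CPM, against 2307 CPM. Among valve and junction genes the connexin gene Gja1 was at 497 CPM against 7.24 CPM. Gja4, a connexin gene of arteries and lymphatic valves, was at 35.0 CPM against 176 CPM.

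Of 14 pan-endothelial genes, 7 were lower than in capillary cells and 0 higher, with a median log2 ratio of -1.08. Pecam1, Cdh5 and Cldn5 are among the 14 and helped to choose these cells. Cldn5, a tight junction protein, was at 1939 CPM against 3432 CPM and did not meet the 2-fold rule. Cdh5 (VE-cadherin) was at 507 CPM against 1917 CPM, Pecam1 (CD31) at 523 CPM against 1300 CPM, and Esam, a junctional adhesion molecule, at 13.0 CPM against 603 CPM. Calcrl, the receptor for adrenomedullin, was at 408 CPM against 2119 CPM. The BMP and ALK1 pathway of blood endothelium was lower for 8 of 12 genes. Its receptor genes Acvrl1 and Bmpr2 were at 91.2 CPM and 197 CPM, against 1070 CPM and 1703 CPM. Smad1 was higher, at 482 CPM against 78.5 CPM.

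Of the matrix list, 11 of 16 measured were higher and 1 lower, with a median log2 ratio of 1.90. Timp3, an inhibitor of matrix proteases, was at 3395 CPM against 802 CPM, and Timp2 at 1078 CPM against 291 CPM. Lama4 and Nid2, of the basement membrane, were at 392 CPM and 114 CPM against 12.4 CPM and 1.28 CPM. Fbln5 and Emilin1, elastic-fibre proteins that anchor lymphatics, were at 338 CPM and 169 CPM against 49.1 CPM and 40.8 CPM. Col4a1, of blood vessel basement membrane, was at 332 CPM against 669 CPM. Igfbp5, of the senescence-associated list, was at 1233 CPM against 75.9 CPM, and 31.4% of cells had a UMI of it.

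Immune and trafficking genes were split, with 6 of 17 higher and 6 lower. The mannose receptor Mrc1 was at 514 CPM against 5.70 CPM, with 238 CPM in leukocytes. Il7, a survival factor for lymphocytes, was at 73.3 CPM against 2.56 CPM. Ackr2, a scavenger of inflammatory chemokines, was at 160 CPM against 72.7 CPM. Cxcl12, a chemokine of blood endothelium, was at 77.4 CPM against 1142 CPM, and S1pr1, a receptor for the lipid S1P, at 457 CPM against 1228 CPM. Of 11 antigen presentation genes 6 were lower. Cd74, the MHC class II invariant chain, was at 245 CPM against 1961 CPM, while leukocytes had 4988 CPM. The fatty acid transporter Cd36 was at 90.4 CPM against 2065 CPM. Of 13 immediate early and heat shock genes, which the tissue digestion can induce, 0 were higher and 0 lower, and Fos stood at 2914 CPM against 1579 CPM.

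Over the whole table, the genes with the largest ratios to other endothelial cells beside those above were Fxyd6, a subunit of the sodium pump (712 CPM against 6.65 CPM in the 9 libraries), and Thy1, the surface protein CD90 (507 CPM against 3.85 CPM over all libraries). Ptx3, a soluble pattern receptor, was at 302 CPM against 0. Col23a1, Pcsk6, Btnl9 and Plce1 had log2 ratios of 4.90, 4.84, 4.69 and 4.59. The lowest ratios, in the 9 libraries with at least 10 such cells, belonged to Vwf, the von Willebrand factor (4.36 CPM against 1369 CPM), Sema3c (0.872 CPM against 709 CPM), Mgp, Ly6a, Hpgd, Ly6c1, Scn7a, Tspan7, Flt1 and Tbx3. Thy1 also stood at 132 CPM in leukocytes.

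Genotype contrasts were tested on UMIs summed per library with edgeR's quasi-likelihood test over 10 libraries, with Benjamini-Hochberg adjustment over all genes tested and calls at an adjusted p under 0.05. Among all gated cells 3986 genes were tested. For p21mTert minus p21Het 0% of genes were called (0 genes, 192 at unadjusted p under 0.05), while DESeq2 called 14, all lower. For p21mTert minus p21mTertCD 0% were called as well (172 at unadjusted p under 0.05, and 3 by DESeq2). For p21mTertCD minus p21Het 1 gene was called, 0.0251% of those tested, with 234 at unadjusted p under 0.05 and 5 called by DESeq2. Without p21Het_1 the first contrast had 3 calls, and without p21Het_3 the contrasts had 14, 2 and 7. Without doublet-marked cells, which also left out p21Het_3 for too few cells, they had 0, 32 and 3. All 32 were lower in p21mTert. The median log2 fold change over all genes was 0.03, 0.03 and 0.01.

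The called gene was Krt18, an epithelial keratin. Its level in gated cells was 912 CPM in WT_1, 139, 49.6 and 28.6 CPM in p21Het, 155, 205, 133, 138 and 118 CPM in p21mTert, and 777 and 560 CPM in p21mTertCD. Both p21mTertCD libraries lay above all libraries of the other tested groups. The log2 fold change was 3.12 ± 0.41 (SE), with an edgeR adjusted p of 0.037. Krt18 was at 2188 CPM in the 15 neuroendocrine-marker cells and 19.5 CPM in the Ccl21a+ endothelial cells. Neuroendocrine-marker cells were 2 of 22 and 4 of 23 gated cells in p21mTertCD, and 1, 1 and 0 in p21Het. Without doublet-marked cells p21Het_3 had too few cells and was left out as well. The log2 fold change was then 6.07 and the edgeR adjusted p 0.199. Leaving out p21mTertCD_1, p21mTertCD_2 or p21Het_2 gave 0.371, 0.145 and 0.262. Leaving out p21mTert_1, p21mTert_2, p21mTert_3 or p21mTert_4, which share the estimate of spread, gave 0.101, 0.0521, 0.0598 and 0.102. With 3 or more rule UMIs required it was 0.679, with only the groups compared 0.309, and with the replicate block 0.233. The log2 fold change stayed between 2.83 and 3.63 whichever library was left out.

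No gene of smallest p in the other contrasts was called by edgeR. For p21mTert minus p21Het these were Slc34a2, Scd1, Apoe, Sftpc and Npc2, all lower and with edgeR adjusted p of 0.11 to 0.155. All 5 were among the 14 called by DESeq2. Slc34a2, Sftpc and Scd1 are genes of alveolar type II cells. For p21mTert minus p21mTertCD they were Krt18, Egr3, Tceal8, Otud1 and Enc1, with edgeR adjusted p of 0.207 to 0.914, and DESeq2 called Krt18 and Egr3. For p21mTertCD minus p21Het the next were Cldn4, Cdc14b, Otud1 and Slc34a2, with edgeR adjusted p of 0.503 to 0.51, and DESeq2 called Slc34a2. With edgeR no gene of the lists was called, and 0 of 12 lymphatic identity genes passed in any contrast. DESeq2 called list members as lower, namely the epithelial genes Sftpc and Sftpb and the fatty acid list gene Apoe for p21mTert minus p21Het, and Sftpc for p21mTertCD minus p21Het.

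The Ccl21a+ endothelial cells were tested in the same way over all 10 libraries, with 2844 genes passing the filter on low counts. This fit with every library was chosen after the data were seen; the planned one left out p21Het_3, which had fewer than 10 cells. For p21mTert minus p21Het 10 genes were called, 0.352% of those tested, and all were lower in p21mTert. DESeq2 called 7 in this contrast, all among the 10, and did not call Cxcl15, Lyz2 and Sftpb. For both other contrasts 0% were called (153 and 144 genes at unadjusted p under 0.05, and 1 and 0 by DESeq2). Without p21mTertCD_2 the former had 1 call, and without p21Het_3 the latter had 4. The called genes were the surfactant protein genes Sftpa1, Sftpb, Sftpc and Sftpd, the fatty acid desaturase gene Scd1, the chitinase-like gene Chil1, the chemokine gene Cxcl15, the lysosomal cholesterol-binding gene Npc2, the lysozyme gene Lyz2, and Gm10600. Of the marker lists, 2 of 4 epithelial genes, Sftpc and Sftpb, and 1 of 2 leukocyte genes, Lyz2, were called lower. Sftpa1, Sftpd, Scd1, Chil1, Cxcl15 and Npc2 are on neither list, so these counts do not show which cells their UMIs came from. Without p21mTertCD_1 or without p21mTertCD_2, Slc34a2 and Napsa were also called lower for p21mTert minus p21Het. Sftpc, Scd1 and Slc34a2 were named above as genes of alveolar type II cells. The summed leukocyte list was at 2877, 712 and 166 CPM in p21Het_1 to p21Het_3, and p21Het_1 was also highest in the epithelial genes. Whether the Lyz2 UMIs came from leukocytes was not tested. Gm10600 was listed both with the Ccl21 cluster (1 of 3 tested called) and among genes already called in other lung cells of these libraries (1 of 2), so its call there is no independent evidence. The planned fit called the same 10 genes.

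Sftpc, the surfactant protein C gene, shows how these values were spread. It was at 205 CPM in WT_1, 21050, 2444 and 262 CPM in p21Het, 465, 337, 426, 619 and 563 CPM in p21mTert, and 444 and 416 CPM in p21mTertCD. Only p21Het_1 and p21Het_2 were above the p21mTert range, and p21Het_3 was below it. The log2 fold change was -4.11 ± 0.71 (SE), with an edgeR adjusted p of 0.00947. In leukocytes of all libraries Sftpc was at 1670 CPM, and 37.4% of leukocytes thinned to 1000 UMIs had it, against 49.2% of Ccl21a+ endothelial cells. Scd1 did not overlap between the groups, at 465, 267 and 143 CPM in p21Het and 33.1 to 45.3 CPM in p21mTert (log2 fold change -3.02 ± 0.36 SE, edgeR adjusted p 0.000445). Npc2 did not overlap either, at 586, 261 and 238 CPM against 77.3 to 145 CPM (log2 fold change -1.73 ± 0.31 SE, edgeR adjusted p 0.0142). These CPM rest on few UMIs, as the summed cells held 42054 UMIs of all genes in p21Het_3 and 83817 to 241762 in p21mTert. The share of all tested genes that did not overlap between these groups is not given.

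The summed level of the 7 epithelial genes is given beside these calls, 2 of which, Sftpc and Sftpb, are part of it. It was 24977, 3737 and 1427 CPM in p21Het, 1576 to 3833 CPM in p21mTert, 1919 and 891 CPM in p21mTertCD, and 1381 CPM in WT_1. Over the other 5 epithelial genes it was 2231, 1180 and 1141 CPM in p21Het and 1133 to 3170 CPM in p21mTert. The groups overlapped. Not all of these 5 were tested, as only 4 of the 7 epithelial genes passed the filter on low counts. Among the 5, Scgb1a1 had UMIs in 99.0% of Ccl21a+ endothelial cells. The 5 include no surfactant protein gene, so their sum does not show how RNA of those genes compared between groups. Doublet-marked cells were 2 of 21, 7 of 38 and 9 of 9 of the Ccl21a+ endothelial cells in p21Het, and 0 of 16, 2 of 19, 6 of 32, 0 of 21 and 0 of 17 in p21mTert. The part of epithelial RNA and of doublets in the 10 calls was not tested. All 7 genes had UMIs in these cells, while Epcam, Cdh1 and Foxj1 were at 0 in the median library. There were 7 cells with at least 50 epithelial UMIs, 2 of them in p21Het_1 and 3 in p21Het_2. These cells were chosen by UMIs of genes that include Sftpc and Sftpb. With them left out, the log2 fold changes shrank to -0.54 for Sftpc, -0.54 for Npc2 and -1.71 for Scd1. Gm10600 was called, 5 of the other genes were not called and 4 were not tested because their counts were too low. Without p21Het_1 the log2 fold change was -1.76 for Sftpc, -1.22 for Npc2 and -2.60 for Scd1, and 3 genes were called, namely Scd1, Sftpa1 and the haemoglobin gene Hbb-bt. Without p21mTert_2 the count was 5, and without p21Het_2 it was 6. With the 76 cells above the Gpihbp1 limit added, 6 of the 10 were called.

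Gm10600, at chr4:42240639-42242685 on the plus strand (GENCODE M21, GRCm38), lies among the Ccl21 copies. In Ccl21a+ endothelial cells it had 12 UMIs in WT_1, 44, 17 and 13 in p21Het, 0 in each of the 5 p21mTert libraries, and 5 and 0 in p21mTertCD. All 5 p21mTert libraries and p21mTertCD_2 were thus at 0 and the other libraries were not. Over the group, p21Het was at least 50.1-fold higher than p21mTert, with the p21mTert level set to the floor of 3 UMIs over its 5 libraries. Without p21Het_1, which gave 44 of the 74 UMIs, it was at least 31.5-fold higher. The edgeR adjusted p was 0.00167. Without p21Het_1 the adjusted p was 0.1.

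The same split was seen outside the gate. There Gm10600 had 182 UMIs in WT_1, 187, 184 and 132 in p21Het, 0 in each p21mTert library, and 50 and 0 in p21mTertCD. Within the Ccl21a+ endothelial cells its level was 74.1 CPM over all libraries, those at 0 included, against 0.27 CPM in capillary cells and 0.15 CPM in leukocytes. Of the 828 Gm10600 UMIs in all passing cells, 93 lay in the gate, 53 in the 76 cells above the Gpihbp1 limit and 667 in cells with fewer than 2 rule UMIs. Of these 667, 0 lay in cells with 10 or more Ccl21a UMIs. Which cells held them is not shown, so these comparisons do not make Gm10600 particular to lymphatic cells. Its 2047-base transcript is uncertain as a target of counting: 95.4% of its 31-base words also occur in transcripts of other genes, 1868 of 2017 in Gm17167. Ccl21a, on the same chromosome, had a log2 fold change of -0.16 ± 0.21 (SE) in these cells, given as a description because its UMIs helped to choose them.

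The lymphatic genes were then compared across genotypes. In Ccl21a+ endothelial cells 0 of 12 identity genes, which include Ccl21a, were called in any contrast, with median log2 fold changes of -0.07, -0.20 and 0.09 in the order of contrasts above. The p21Het mean of Prox1 was 597 CPM ± 25.8 (SD, n = 3). Its p21mTert mean was 678 CPM ± 126 (SD, n = 5), and its p21mTertCD mean 896 CPM ± 90.6 (SD, n = 2). By library it was 568, 605 and 618 CPM in p21Het, and 960 and 832 CPM in p21mTertCD, which did not overlap. Prox1 helped to choose the cells, so its levels are given as a description. Flt4 was at 1249 CPM ± 192, 1386 CPM ± 251 and 1334 CPM ± 10.6 in the same groups (SD). Of the VEGF list 0 of 7 tested genes were called, and of the matrix list 0 of 15.

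Antigen presentation genes, which show peptides on the cell surface, were compared in the same way. For p21mTert minus p21mTertCD 0 of 8 tested were called, and 6 of 8 were lower at unadjusted p under 0.05, where 78 of 2844 genes were over the whole table. The list had a median log2 fold change of -0.58. Among all gated cells 0 of 8 were lower at unadjusted p under 0.05, and the median was -0.09. Cd74 was at 143, 60.6, 223, 37.7 and 121 CPM in p21mTert and 330 and 594 CPM in p21mTertCD. These groups did not overlap, while p21Het had 431, 350 and 71.3 CPM and overlapped with both. The log2 fold change of Cd74 was -1.89 ± 0.49 (SE), with an edgeR adjusted p of 0.5. The 6 leukocyte genes summed to 145 to 376 CPM in p21mTert and 320 and 129 CPM in p21mTertCD, and their part in these values was not tested.

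**Figure D5:**
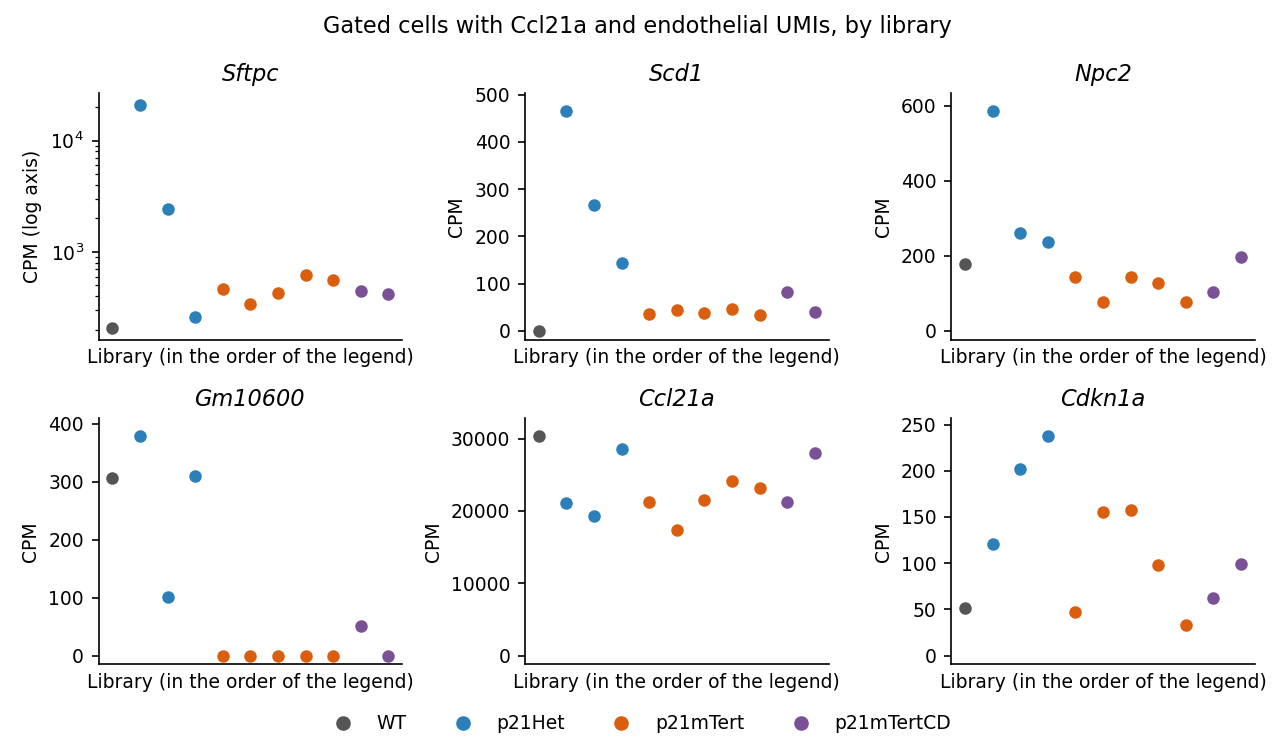
CPM by library of Sftpc (log axis), Scd1, Npc2, Gm10600, Ccl21a and Cdkn1a in gated cells with Ccl21a and endothelial UMIs, 1 point per library, coloured by genotype in the order WT, p21Het, p21mTert, p21mTertCD. Sftpc reaches 21050 CPM in p21Het_1, Gm10600 is 0 in all 5 p21mTert libraries, and Ccl21a lies between 17381 and 30388 CPM in all libraries.

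Cdkn1a, which encodes p21, and Tert, which encodes the telomerase reverse transcriptase, are the genes the genotypes concern. Cdkn1a in Ccl21a+ endothelial cells was at 51.2 CPM in WT_1, 121, 202 and 238 CPM in p21Het, 47.7, 156, 157, 98.1 and 33.1 CPM in p21mTert, and 61.9 and 99.0 CPM in p21mTertCD. Both p21mTertCD libraries were below all 3 p21Het libraries, and p21mTert overlapped with p21Het. The log2 fold changes were -0.81 ± 0.41 for p21mTert minus p21Het, 0.41 ± 0.54 for p21mTert minus p21mTertCD and -1.21 ± 0.57 for p21mTertCD minus p21Het (SE). None was called, with edgeR adjusted p of 0.994, 0.975 and 0.905. The values rest on 2 to 38 Cdkn1a UMIs per library. Capillary cells had 558 CPM of Cdkn1a against 124 CPM here. Tert had 1 UMI in p21Het_1, 1 in p21mTert_3 and 0 in the other 9 libraries, so that a difference was not detectable at this depth. Ifi208, an interferon-inducible gene, had 0 UMIs in the Ccl21a+ endothelial cells of every library. Of the p53 targets 0 of 2 tested were called, and of the senescence-associated genes 0 of 5.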

How the data were processed

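The deposited matrices hold raw UMI counts per gene and barcode, made by the authors with Cell Ranger on mm10 from a 10x V2 3′ kit, per the labels' protocols. Its version differs between the design text and the file headers (2.3 and 3.1.0). The cell filters are those of the design text and were applied here. Cells, lists and tests were chosen with earlier results of these data known.

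Doublets were scored with Scrublet in scanpy 1.11.5, whose own threshold marked 0% to 3.59% of cells. The highest scores were marked instead at 0.8% per 1000 barcodes (4.55% to 8.42%), and marked cells stayed in unless stated. UMIs were summed per library and passed to edgeR 4.0.16 (R 4.3.3), with its default low-count filter, TMM scaling and a quasi-likelihood fit with a term for genotype. The SE of a log2 fold change was its absolute value divided by the square root of the quasi-likelihood F statistic. Self-tests ran on simulated data. DESeq2 1.42.0 was an alternative. Ratios between cell types used CPM plus 10 and genes of at least 20 CPM. Shares were compared with 2-sided exact permutation tests (scipy 1.17.1). Shares of cells with a UMI were thinned to 1000 UMIs.

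Named genes were the gate's genes, Ccl21a, Cdkn1a, Tert and Ifi208, up to 10 called genes per contrast and direction (where fewer than 5 were called, all of them and the 5 of smallest p), called members or the 4 highest of each list, and the 20 highest and 10 lowest against other endothelial cells. Further list members were named after their values were seen. The listed gene Figf is Vegfd in the files. In gated cells, deviations of same-numbered libraries from their group means had correlations of -0.16 to 0.06. These few values cannot settle whether the libraries were paired. Some members of the gene lists are not reported here.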

Additional observations from a re-analysis of the deposited data

Results flagged for a closer look

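Among the 5 p21mTert libraries, 1 library lay far from the other 4 in 2 of 41 values tested, with the genes that chose the cells left out. Chance alone would mark about 5% of groups, so 2 of 41 is near that share. The summed level of the 7 epithelial genes in gated cells was 21848 CPM in p21mTert_3, against 1827 to 4515 CPM in the other 4. That of the 4 platelet genes was 15517 CPM in p21mTert_5, against 424 to 2390 CPM.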

How the results depend on the processing

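As a share of endothelial barcodes, with only the gated cells among them counted, the differences turned to -0.433, -0.480 and 0.0468 points in the order of contrasts above. With Ccl21a and endothelial UMIs also required they were -0.244, -0.527 and 0.283 points. Leaving out 1 library gave -0.0308 to 0.195, 0.0745 to 0.232 and -0.200 to 0.0191 points for gated cells, and -0.0493 to 0.0968 points for p21mTert minus p21Het in Ccl21a+ endothelial cells. With the replicate block, the difference p21mTert minus p21Het within replicates 2 and 3 was -0.0135 points, and 0 genes were called in any contrast. The labels do not say whether the numbers pair the libraries.

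For gated cells, calls numbered 0, 0 and 1 in the order of contrasts above. They numbered 167, 127 and 184 with no filter on low counts and 14, 3 and 5 with DESeq2. In Ccl21a+ endothelial cells with p21Het_3 left out they were 10, 0 and 4. With 3 or more rule UMIs they were 1, 1 and 0, and with only the groups compared 0, 1 and 0. Without doublets they were 0, 32 and 3, and that fit also left out p21Het_3 for too few cells. Leaving out 1 library gave 0 to 14 (14 without p21Het_3), 0 to 2 and 0 to 7 calls. In Ccl21a+ endothelial cells the counts of 10, 0 and 0 became 3 to 12 (3 without p21Het_1), 0 to 1 (1 without p21mTertCD_2) and 0 to 4 (4 without p21Het_3), 1 for p21mTert minus p21Het with under 50 epithelial UMIs, 6 with any Gpihbp1 and 7 with DESeq2, and 1 for p21mTert minus p21mTertCD with DESeq2. The cause of each shift was not tested. Few cells per library limit all of these tests. The fits on Ccl21a+ endothelial cells, other than the one with p21Het_3 left out for too few cells, were chosen after seeing the data.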
